A study of Mus musculus with 4 samples.

Results

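The genes described are the small RNA rows whose symbols begin with Snora or Scarna followed by a digit: 45 of the 25630 rows of a table of TPM, a relative abundance that divides reads by transcript length, 36 of them Snora and 9 Scarna. RNA came from BEKO, a mouse line of thymic lymphoma cells with the genotype given as WT, grown at low density (2 libraries) or at high density (2 libraries). All 4 libraries share line and genotype, and the densities are the only labelled difference. The labels state no cell numbers, medium or culture times. They also do not tie the libraries of a group to separate cultures, so any p-value measures the spread between libraries that may be technical replicates. The rows are defined by name alone, but the family was singled out with the density results of these libraries known. Its values are therefore a description, and no p-value is given for any of its rows.

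H/ACA RNAs fold into a pair of hairpins joined by a hinge, the H box, and end in a tail that carries the letters ACA. In a particle with the pseudouridine synthase dyskerin (Dkc1) and the proteins Nhp2, Nop10 and Gar1, each RNA pairs with a target and directs the conversion of a chosen uridine to pseudouridine. Snora RNAs act in the nucleolus on ribosomal RNA. Scarna RNAs collect in Cajal bodies, nuclear structures where the RNAs of the spliceosome are modified, and some of them belong to the box C/D class, which guides methylation, or combine both classes. In mammals most of these RNAs are cut from introns of host genes, many of which encode proteins of the translation machinery.

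Sequences were taken from GENCODE M21 (mouse build GRCm38) by gene name, since the deposited table holds none. All 45 symbols matched. The motifs searched on the RNA strand were ACA followed by 1 to 6 bases at the end, and, for the H box, ANANNA centred between 40% and 60% of the length. The tail was found in 34 of 36 Snora RNAs (94.4%) and the H box letters in 32 of 36 (88.9%). Of 186 small RNAs of 120 to 150 bases annotated as snRNA, misc_RNA or rRNA, 9.68% had the tail and 28.0% the H box letters. RNAs annotated as snoRNA, scaRNA or miRNA were not part of this comparison. Among the 9 Scarna RNAs only 4 had the tail: Scarna3a, Scarna3b, Scarna8 and Scarna13. The H box letters were found in 6 of the 9 (66.7%), among them Scarna2, a box C/D RNA, and both motifs in 3. The name H/ACA thus describes the Snora rows by sequence and fewer than all of the Scarna rows.

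The RNAs on which the results turn are shown 5′ to 3′, written as DNA, with the H box letters and the ACA tail in capitals where found. Snora65 has the highest level of the family. Snora16a, Snora44 and Snora61 share 1 host, Snhg12, and Snora2b and Snora34 share another, Kansl2. Snora7a and Snora64 lie in ribosomal protein genes, and Scarna8 was among the few rows with more RNA at high density.
Snora65: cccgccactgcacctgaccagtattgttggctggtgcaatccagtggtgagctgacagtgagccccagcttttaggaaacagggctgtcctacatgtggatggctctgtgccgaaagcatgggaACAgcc
Snora16a: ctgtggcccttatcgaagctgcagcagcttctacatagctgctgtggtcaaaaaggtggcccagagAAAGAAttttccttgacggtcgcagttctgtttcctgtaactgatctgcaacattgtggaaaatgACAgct
Snora44: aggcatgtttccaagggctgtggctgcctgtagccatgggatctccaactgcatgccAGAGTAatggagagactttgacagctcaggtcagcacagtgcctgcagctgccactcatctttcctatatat
Snora61: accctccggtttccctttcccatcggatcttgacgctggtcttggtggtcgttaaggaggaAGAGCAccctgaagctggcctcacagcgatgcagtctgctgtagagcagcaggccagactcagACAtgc
Snora2b: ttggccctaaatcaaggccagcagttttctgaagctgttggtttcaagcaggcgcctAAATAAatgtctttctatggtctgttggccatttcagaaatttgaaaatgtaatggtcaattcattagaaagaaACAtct
Snora34: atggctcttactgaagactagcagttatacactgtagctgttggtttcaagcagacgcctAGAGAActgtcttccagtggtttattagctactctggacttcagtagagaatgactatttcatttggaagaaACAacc
Snora7a: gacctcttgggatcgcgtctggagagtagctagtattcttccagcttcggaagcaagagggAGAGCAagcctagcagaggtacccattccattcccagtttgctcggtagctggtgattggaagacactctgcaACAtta
Snora64: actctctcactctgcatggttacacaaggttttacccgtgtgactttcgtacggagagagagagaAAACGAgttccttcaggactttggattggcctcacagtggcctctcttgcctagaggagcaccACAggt
Scarna8: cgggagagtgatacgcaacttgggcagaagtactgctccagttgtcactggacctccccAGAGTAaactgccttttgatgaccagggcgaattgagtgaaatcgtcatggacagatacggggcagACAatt

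Each library showed the T lineage markers: all 10 of the markers checked, among them Cd3e, Lck and Thy1, were present, with summed levels of 7625 to 8241 TPM. Of 16 markers of B, myeloid, red blood, fibroblast and epithelial cells, 7 were at 0 in every library. The summed level of these 16 was 54.1 TPM in low density library 1 and 7.89 to 16.6 TPM in the others. The collagen genes Col1a1 and Col1a2 gave 30.3 and 14.5 TPM in low density library 1. The myeloid marker Itgam was at 8.27 and 6.62 TPM at low density and at 16.1 and 12.1 TPM at high density. It was higher without overlap, as were 34.7% of all rows tested, and was not called. The part of these 3 genes in the results was not tested. Over all rows tested, the median difference between densities on the log2(TPM + 1) scale, on which every log2 difference below is given as high minus low density, was 0.12.

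The summed level of the Snora rows was lower at high density. It was 954 and 1206 TPM in the low density libraries and 590.4 and 508 TPM in the high density libraries. The means were 1080 ± 179 and 549 ± 58.0 TPM (SD, n = 2), a ratio of 1.97, and the groups did not overlap. The sums of the Scarna rows lay closer together. They were 47.8 and 53.6 TPM at low density against 45.9 and 47.4 TPM at high density, a ratio of 1.09. Of the 47.4 TPM in high density library 2, 37.3 TPM came from Scarna9 alone. That row was at 11.2 to 13.1 TPM in the other libraries. Scarna17 gave 23.3 of the 53.6 TPM in low density library 2 and 0 TPM in high density library 2. The ratio thus depends on single rows in single libraries. In bulk RNA, fewer cells that hold an RNA and less of it per cell cannot be told apart, and TPM is relative to all other RNA in the table.

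Of the 45 rows, 6 were listed at 0 in every library (Scarna3b, Snora19, Snora24, Snora26, Snora35 and Snora36b), and 34 were above 0 in all 4. The filter for testing, a mean of at least 1 TPM, was passed by 37 rows, 31 Snora and 6 Scarna. Among the 39 rows above 0 anywhere, 32 had a lower mean log2 value at high density and 7 a higher one. Over all 45 rows the median log2 difference was -0.80, and over the 37 tested it was -1.13, beside 0.12 for all rows tested.

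Limma, fitted to all 10936 rows above the filter with Benjamini-Hochberg adjustment, called 11 of the 37 rows lower at high density and 0 higher (26 and 1 at an unadjusted p under 0.05). Of all tested rows 6.68% were called, 2.11% lower and 4.57% higher. At an unadjusted p under 0.05 the whole table held 849 rows lower and 1720 higher of 10936. The high density libraries both lay below both low density libraries in 28 of the 37 rows and above them in 2, where the same held for 20.0% and 34.7% of all tested rows. These shares are given as they stand, because the family was picked from this contrast. The called rows were Snora2b, Snora3, Snora5c, Snora7a, Snora15, Snora31, Snora33, Snora44, Snora52, Snora61 and Snora64, with low density means 2.05 to 6.01 times the high density means. Without low density library 2, limma called 0 rows of the family (9 lower at an unadjusted p under 0.05), and leaving out low density library 1 gave 7, of which 3 were among these 11. Leaving out a high density library raised both the count of the family and that of the whole table. After each library was centred on its median the count was 4, and it was 4 after quantile normalisation. Low density library 2 had the higher value in 28 rows of the family and low density library 1 in 11.

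**Figure D1:**
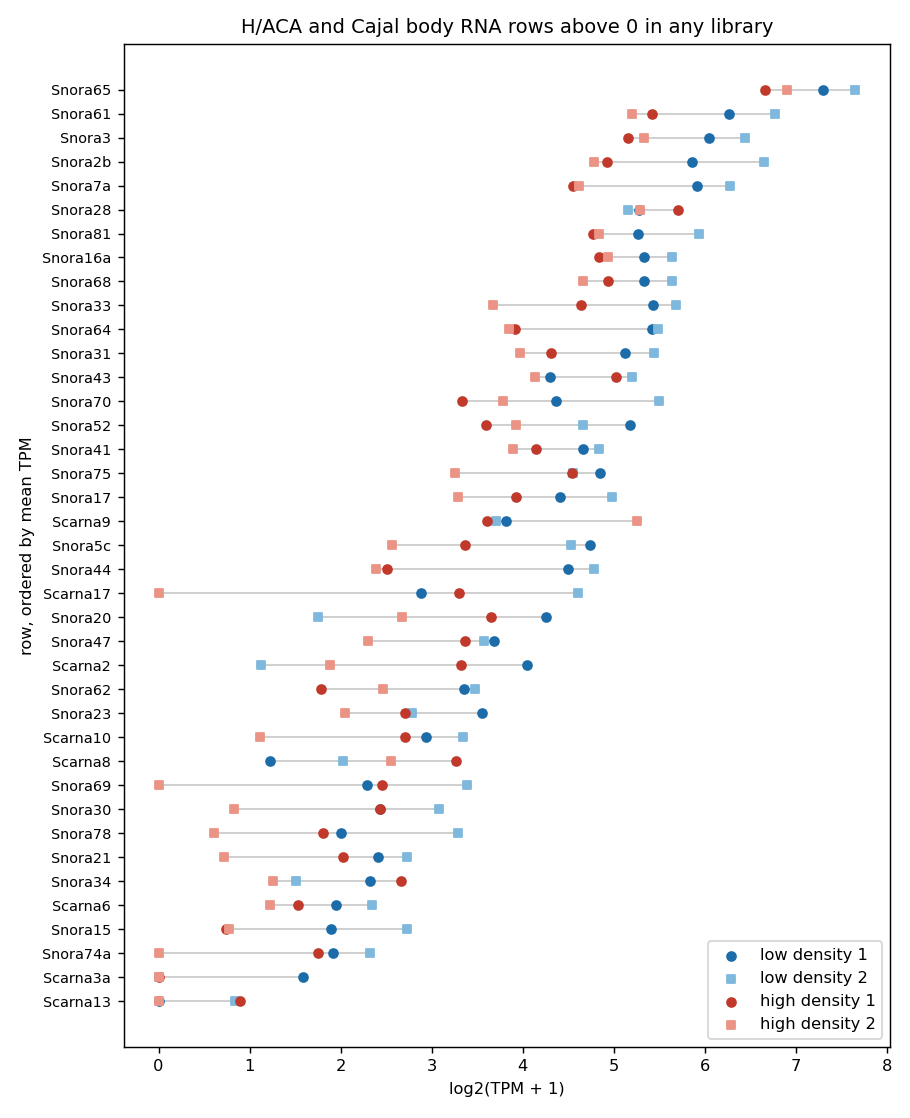
Level of the 39 Snora and Scarna rows above 0 in any library, as log2(TPM + 1) on the horizontal axis, with 1 row per gene ordered by mean TPM and 1 point per library (blue, low density; red, high density; circles, replicate 1; squares, replicate 2). In most rows both red points lie left of both blue points; Snora28 and Scarna8 show the opposite order.

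Snora65 was the most abundant row in every library. It stood at 156.8 and 200.3 TPM at low density and at 100.2 and 118.7 TPM at high density, without overlap. Its log2 difference was -0.70 ± 0.24 (SE), and it was not among the called rows. Snora61, the next by deposited level, was at 76.2 and 108 TPM at low density and at 41.7 and 35.9 TPM at high density. Snora3, inside the ribosomal protein gene Rpl27a, went from 65.0 and 86.1 TPM to 34.6 and 39.1 TPM. In both of these the lower low density library was still above each high density library.

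Snora2b differed more between the low density libraries, at 56.9 and 99.4 TPM, than between the high density libraries, at 29.4 and 26.5 TPM. Snora7a was at 59.2 and 76.8 TPM against 22.5 and 23.6 TPM. Snora64 was tight in both groups, with 41.7 and 43.9 TPM at low density and 14.1 and 13.4 TPM at high density, a 3.12-fold difference. These rows show no overlap between densities. Snora31 was at 33.7 and 42.6 TPM against 18.9 and 14.7 TPM, and Snora33 at 42.0 and 50.3 TPM against 23.9 and 11.8 TPM. The low density mean of Snora33 was 2.59 times the high density mean. It was 3.92 times without high density library 1 and 1.93 times without high density library 2.

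Snora81, Snora16a and Snora68 were also abundant, but the densities lay closer. Snora81 was at 37.4 and 60.4 TPM against 26.3 and 27.6 TPM. Snora16a was at 39.4 and 48.9 TPM against 27.6 and 29.7 TPM, and Snora68 at 39.4 and 48.7 TPM against 29.6 and 24.4 TPM. None of these was called, though the groups did not overlap in any of them. Snora28, in the host Eif5, which encodes a translation initiation factor, ran the other way, with 37.7 and 34.6 TPM at low density and 51.1 and 38.1 TPM at high density. High density library 2 lay only just above low density library 1 in that row, and the log2 difference was 0.28 ± 0.26 (SE).

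The largest difference among rows of at least 5 TPM was that of Snora44. It was at 21.5 and 26.6 TPM at low density and at 4.69 and 4.23 TPM at high density. The low density mean was 5.40 times the high density mean, and the log2 difference was -2.19 ± 0.30 (SE). Snora5c followed among the called rows, with 25.7 and 22.2 TPM against 9.31 and 4.89 TPM, a ratio of 3.37. Snora20 did not separate the groups: its values were 18.1 and 2.37 TPM at low density and 11.6 and 5.40 TPM at high density.

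The Scarna rows were low and moved in different directions. Scarna8 was the only one higher at high density without overlap, at 1.33 and 3.06 TPM against 8.63 and 4.89 TPM. Scarna9, a box C/D RNA, was at 13.1 and 12.05 TPM at low density and at 11.2 and 37.3 TPM at high density, so that its higher mean came from high density library 2. Without that library its log2 difference was -0.16 in place of 0.67. Scarna17, also of the C/D class, was at 6.35 and 23.3 TPM against 8.84 and 0 TPM, and Scarna2, another C/D RNA, at 15.5 and 1.18 TPM against 8.99 and 2.70 TPM. The groups overlapped in both.

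Scarna10, which combines C/D and H/ACA domains, was at 6.65 and 9.16 TPM at low density and at 5.52 and 1.16 TPM at high density. Scarna6 was at 2.86 and 4.08 TPM against 1.89 and 1.33 TPM. In both, the groups did not overlap. Scarna13 was listed at 0 and 0.788 TPM against 0.854 and 0 TPM, and Scarna3a at 2.00 TPM in low density library 1 and at 0 in the other libraries. Limma called 0 of the 6 tested Scarna rows (2 lower and 1 higher at an unadjusted p under 0.05). Whether the Scarna rows differ from the Snora rows in their response was not tested.

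The low values stand for few reads. TPM multiplied by the RefSeq length of a row fell on whole multiples of 1 step per library, within 0.01 of a step, for 94.1% to 94.7% of the Snora and Scarna values above 0. The step was found from these rows, and the same step gave whole multiples for 92.6% to 92.9% of box C/D (Snord) values and 96.3% to 97.5% of microRNA gene values, which had not been used to find it. The RefSeq lengths are thus the divisors behind most of these TPM values, and 1 step is read here as 1 counted read or read pair. Snora28 and Snora62 did not come out whole, and no read number is given for them. The other 43 rows held 1377 and 1935 reads in the low density libraries and 848 and 698 in the high density libraries. The total read number of a library is not known from these files, and reads are counted here without molecular identifiers.

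Read numbers bound the counting error of each row, and libraries of a group can differ by more. Snora65 rested on 235 and 327 reads at low density and on 151 and 170 at high density. Snora44 rested on 32 and 43 reads against 7 and 6, and Snora61 on 60 and 93 against 33 and 27. Scarna8 rested on 2, 5, 13 and 7 reads in low density libraries 1 and 2 and high density libraries 1 and 2. In the same order Scarna17 rested on 5, 20, 7 and 0, Scarna2 on 12, 1, 7 and 2, and the called row Snora15 on 4, 9, 1 and 1. The 6.01-fold difference of Snora15 was 3.92-fold without low density library 2. Counts of at least 10 reads were reached by 23 and 28 rows in the low density libraries and by 21 and 18 in the high density libraries.

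The order of levels within the family depends on the length model. RefSeq lengths of the family ran from 42 to 275 bases with a median of 118, where GENCODE lengths had a median of 132. In 6 rows the GENCODE RNA was more than 1.5 times as long: Scarna2, Scarna9, Scarna10, Snora19, Snora20 and Snora61. For Snora61 RefSeq holds 62 bases, bases 68 to 129 of the 130 in GENCODE, and for Snora20 it holds 61 bases, bases 68 to 128 of 128. Both models begin just after the H box letters and so leave out the RNA's 5′ part, as the capitals show, which here mark the RefSeq part.
Snora61: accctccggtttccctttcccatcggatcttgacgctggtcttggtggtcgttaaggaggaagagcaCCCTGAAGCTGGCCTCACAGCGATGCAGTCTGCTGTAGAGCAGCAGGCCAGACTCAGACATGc
Snora20: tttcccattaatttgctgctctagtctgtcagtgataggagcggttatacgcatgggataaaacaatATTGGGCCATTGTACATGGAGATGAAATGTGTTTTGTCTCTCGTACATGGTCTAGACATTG

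Divided by the GENCODE length instead, the mean of Snora61 over the 4 libraries would be 31.3 TPM in place of 65.5 TPM, and its place in the family would go from 2 to 8. Scarna2 would go from 7.09 to 1.04 TPM and Scarna10 from 5.62 to 1.23 TPM. Reads outside the RefSeq part would also be counted under the longer model, so these values are arithmetic and not measured levels. Snora65 keeps its first place in both. Across the 39 rows above 0, which share libraries and counting, the RefSeq length and the log2 difference had Pearson's r = 0.0096 and Spearman's rho = 0.054.

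**Figure D2:**
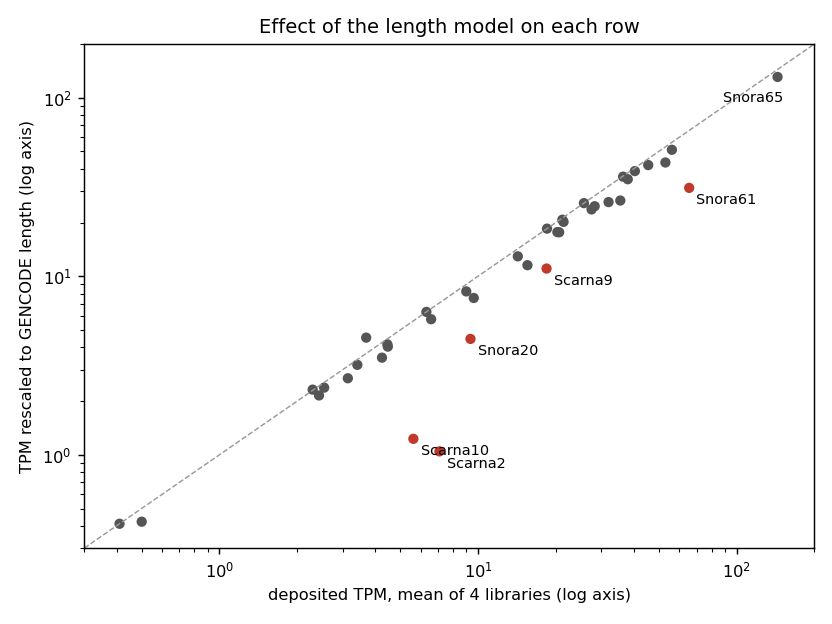
Mean TPM over 4 libraries as deposited (horizontal, log axis) and after division by the GENCODE in place of the RefSeq length (vertical, log axis), 1 point per row above 0; the dashed line marks equality. Red points are the rows whose GENCODE RNA is more than 1.5 times as long, and Scarna2 and Scarna10 lie farthest below the line.

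A host gene, one that holds the small RNA inside its span on the same strand in GENCODE M21, was found for 40 of the 45 rows, giving 37 hosts. Their summed level averaged 28048 ± 2285 TPM in low density and 27975 ± 2066 TPM in high density libraries (SD, n = 2), a ratio of 1.00. By limma at an unadjusted p under 0.05, 4 of 35 tested hosts were lower and 2 higher, beside 849 and 1720 of all 10936 rows. After adjustment limma called 1 host lower and 0 higher, beside 2.11% and 4.57% of all rows tested. That host was Dancr, a long non-coding RNA, at 29.6 and 36.6 TPM against 10.7 and 11.9 TPM (limma adjusted p = 0.0106), which holds Snora26, listed at 0. The call of Dancr was lost without either low density library. Its low density mean was 2.93 times the high density mean, and 2.62 to 3.24 times with 1 library left out. In the 31 pairs with both rows tested, the median log2 difference was -1.13 for the small RNA and -0.0029 for the host. The small RNA lay below its host in 26 of the 31, and the median of small RNA minus host was -1.05. Across these pairs, which share the libraries and in some cases a host, the differences had Pearson's r = -0.044 and Spearman's rho = 0.22.

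Hosts that encode ribosomal proteins show this separation in 11 tested pairs. Their small RNAs had log2 differences from -1.61 to -0.68, with a median of -1.29, and 5 of the 11 were called lower, beside 2.11% of all rows tested. The 11 hosts had differences from -0.71 to 0.26, with a median of -0.081. Rpl12, the host of Snora65, was at 240.4 and 310.1 TPM at low density and at 231 and 369 TPM at high density. As a share of it, Snora65 was 65.2% and 64.6% at low density and 43.3% and 32.2% at high density. Rpl32, among the most abundant of these hosts, was at 8338 and 9439 TPM against 11083 and 8896 TPM, while its Snora7a was 0.710% and 0.813% of it against 0.203% and 0.266%. For Rps2 the share taken by Snora64 was 0.928% and 0.778% against 0.347% and 0.429%. These shares mix the lengths of both genes, so they can be compared between libraries but not between pairs.

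Snhg12, a long non-coding host RNA, carries 3 of the rows and ran opposite to all of them. It was at 155.3 and 176.5 TPM at low density and at 249 and 1125 TPM at high density, where the libraries differed widely. The groups did not overlap, but limma did not call it (log2 difference 1.67 ± 0.50 SE, adjusted p = 0.0695). With every library kept, a filter of 5 TPM gave a call of Snhg12 (limma adjusted p = 0.0237), as did the replicate number as a block. The other pseudocounts, scalings and limma options gave no call, and neither did testing with no filter. In these the limma adjusted p ran from 0.0703 (pseudocount 0.1) to 0.844 (no filter), with 0.176 after median centring. The ratio of high to low density means was 4.14, 6.78 if high density library 1 is left out and 1.5 if the other high density library is. Snora61 equalled 49.1% and 61.4% of the TPM of Snhg12 at low density and 16.7% and 3.19% at high density. The shares for Snora44 were 13.9% and 15.0% against 1.88% and 0.376%, and for Snora16a 25.4% and 27.7% against 11.1% and 2.64%. The 3 RNAs of this host differed in size of change, since the low density mean was 1.54 times the high density mean for Snora16a and 5.40 times for Snora44.

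Kansl2, which encodes a subunit of a histone acetyltransferase complex, holds Snora2b and Snora34. It was at 44.2 and 47.8 TPM against 33.6 and 42.8 TPM (limma adjusted p = 0.57). Snora2b had a log2 difference of -1.40 ± 0.30 (SE). Snora34, at 4.00 and 1.84 TPM against 5.31 and 1.40 TPM, had one of 0.05 ± 0.49 (SE) and rested on 2 to 8 reads per library. Haus6, the host of Scarna8, was at 48.1 and 43.6 TPM against 41.2 and 68.1 TPM, without the order seen in Scarna8.

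Some small RNAs share bases with their host's exons. An exon of some annotated host transcript, retained introns included, overlapped 20 of the 40 hosted rows, and 18 of these were tested. Their median log2 difference was -1.22, and 10 of the 18 were called lower. For the 14 tested rows inside a host but outside its exons the median was -0.79, and 1 was called lower. The groups also differ in level. Most rows outside exons had means of 9.35 TPM or less, and most overlapping rows had 14.3 TPM or more. The part of level in this contrast was not tested. Of all rows tested 2.11% were called lower. How reads shared by a host and a small RNA were assigned is not stated in the labels, and the part of such reads in these values was not tested.

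**Figure D3:**
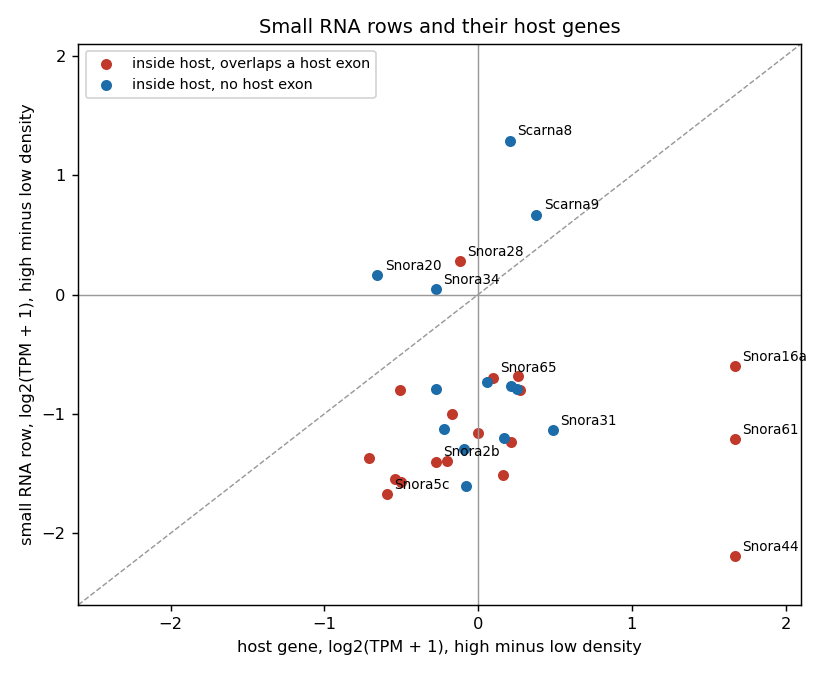
Difference between densities of log2(TPM + 1) for the host gene (horizontal) and for the small RNA inside it (vertical), 1 point per pair with both tested (31 pairs), coloured by whether the small RNA overlaps an annotated host exon; the dashed line marks equal differences. Most points lie below the line, and the Snhg12 RNAs Snora16a, Snora61 and Snora44 lie farthest to the right.

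Genes for the 4 core proteins of the particle were all lower at high density without overlap, as were 20.0% of all rows tested. Limma called 2 of the 4 lower, beside 2.11% of all rows tested. Dkc1, the pseudouridine synthase, was at 209 and 218 TPM against 67.6 and 109 TPM, and fell by 1.31 ± 0.27 (SE) on the log2 scale (limma adjusted p = 0.0149). Nhp2, which binds the RNA, was at 299.8 and 397 TPM against 147 and 156 TPM, and fell by 1.18 ± 0.24 (SE; limma adjusted p = 0.0134). Gar1 was at 220.4 and 239.6 TPM against 86.3 and 172 TPM (limma adjusted p = 0.0987), and Nop10 at 279 and 343 TPM against 225 and 156 TPM (limma adjusted p = 0.112). The summed level of the 4 genes averaged 1103 ± 134 TPM in low density and 559 ± 47.6 TPM in high density libraries (SD, n = 2), a ratio of 1.97. The calls depend on 1 group: without low density library 2 neither Dkc1 nor Nhp2 was called (limma adjusted p = 0.243 and 0.422). Leaving out the other low density library ended the call of Dkc1 (limma adjusted p = 0.0812). The low density mean of Gar1 was 1.78 times the high density mean, 1.33 times if high density library 1 is left out and 2.67 times if the other is.

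Assembly factors, which load the proteins onto the new RNA, were not called: 0 of 7 by limma (2 lower and 0 higher at an unadjusted p under 0.05), with a median log2 difference of -0.25. The 2 lower at that threshold were the early assembly factor Shq1 and the helicase subunit Ruvbl1. For the early assembly factor Naf1 and the helicase subunit Ruvbl2 the densities overlapped. In this list 3 genes were lower and 1 higher at high density without overlap, beside 20.0% and 34.7% of all rows tested. The trimming list holds 4 enzymes that act on RNA tails (Parn, Exosc10, Tent4b and Toe1), not all of which shorten them. Limma called 0 of these 4 (0 at an unadjusted p under 0.05), and the median was 0.14. Over all 10936 rows tested, 849 were lower and 1720 higher at an unadjusted p under 0.05.

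In the Cajal body list limma called 2 of 18 genes lower and 0 higher, beside 2.11% and 4.57% of all rows tested. At an unadjusted p under 0.05 the list held 3 lower and 0 higher, beside 849 and 1720 of all 10936 rows. The median log2 difference of the list was -0.20. Nolc1, a chaperone of small nucleolar particles that shuttles between nucleolus and Cajal body, was at 287 and 284 TPM against 96.7 and 170.1 TPM (limma adjusted p = 0.0321). Gemin4, a subunit of the SMN complex, was at 36.9 and 31.3 TPM against 11.7 and 16.3 TPM (limma adjusted p = 0.026). Both calls were lost without either low density library. With 1 library left out, the low density mean of Nolc1 was 1.68 to 2.95 times the high density mean. That of Gemin4 was 2.09 to 2.93 times. Coil, the scaffold of the Cajal body, was at 41.7 and 38.8 TPM against 30.6 and 39.3 TPM (limma adjusted p = 0.681). Wrap53, which brings Scarna RNAs and telomerase to the Cajal body, was at 27.3 and 25.2 TPM against 20.0 and 27.9 TPM (limma adjusted p = 0.793). Neither separated the densities.

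Telomerase RNA, Terc, ends in an H/ACA domain and binds the same proteins, but is made from its own gene. It was at 3.37 and 3.46 TPM at low density and at 0.395 and 1.04 TPM at high density. The groups did not overlap, and limma did not call it (log2 difference -1.39 ± 0.40 SE, adjusted p = 0.06). The ratio of low to high density means was 4.77. Leaving out high density library 1 gave 3.29, and leaving out the other gave 8.66. Tert, the telomerase protein, lay under the filter, with 0.0729 and 0.218 TPM against 0.0181 and 0.172 TPM.

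**Figure D4:**
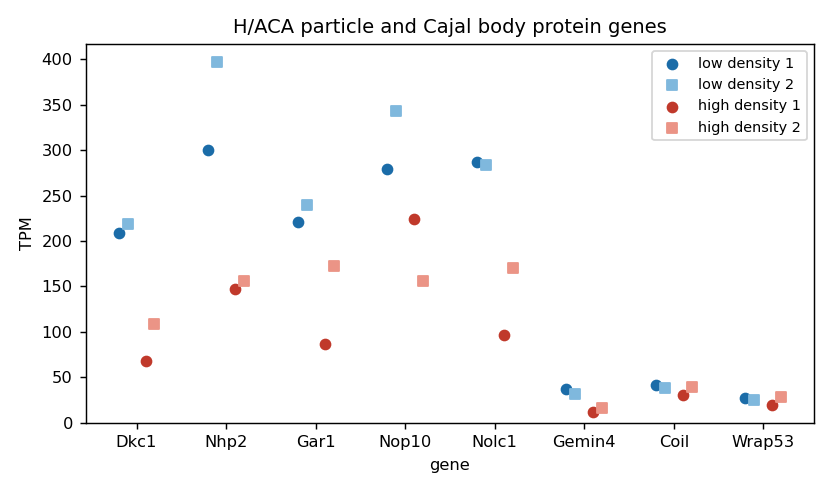
TPM of genes for the 4 core H/ACA proteins (Dkc1, Nhp2, Gar1, Nop10) and 4 Cajal body genes, 1 point per library (blue, low density; red, high density; circles, replicate 1; squares, replicate 2). The red points lie below the blue ones for the core proteins, Nolc1 and Gemin4, and mix with them for Wrap53 and Coil.

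Box C/D rows, the most similar family, showed a like level difference. Of 72 Snord rows, 57 were tested, and limma called 17 lower and 2 higher, beside 2.11% and 4.57% of all rows tested. Leaving out a low density library lowered the number of Snord rows called, most strongly for low density library 2. Leaving out a high density library raised it. The whole table moved the same way. Median centring gave 6 lower and quantile normalisation 7, with 0 higher in both. With no filter on low values limma called 0 of 72 rows, with 14 lower and 3 higher at an unadjusted p under 0.05. Their summed level averaged 2726 ± 543 TPM in low density and 1434 ± 95.1 TPM in high density libraries (SD, n = 2), a ratio of 1.90, beside 1.97 for the Snora rows. The median log2 difference of the tested rows was -0.87 for Snord and -1.14 for Snora. No difference between these families was tested.

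**Figure D5:**
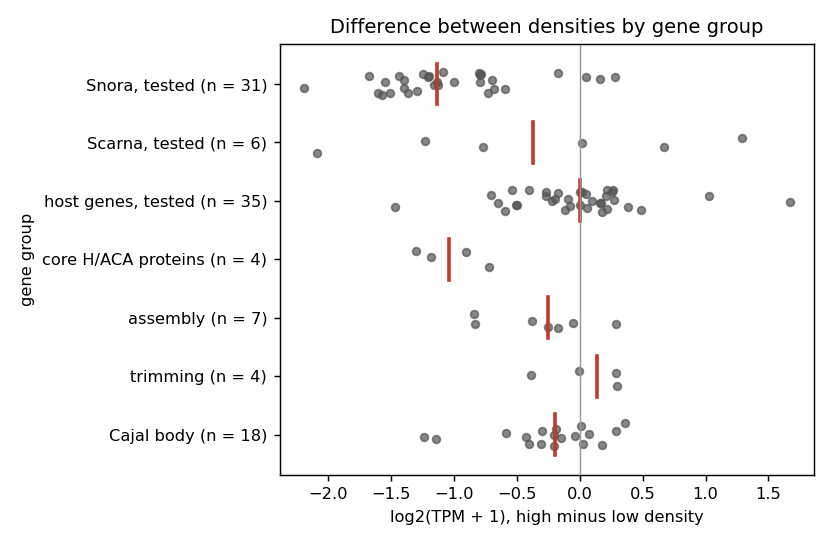
Difference between densities of log2(TPM + 1), high minus low, for each gene of the groups on the vertical axis (n in brackets), with the group median as a red line. Snora rows and core H/ACA proteins centre near -1, at -1.14 and -1.04, while host genes, trimming and assembly genes centre between -0.25 and 0.14.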

How the data were processed

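A microprep column kit was used for RNA and a sequencing company prepared strand-specific libraries, per the labels' protocols. The authors deposited TPM values, 1 column per library, each summing to 1000000. The submitters' processing notes name mm9 and DESeq2 1.2.10 without a role; the aligner, counter and annotation are not stated in them. Columns were tied to samples by their descriptions. No other per-sample columns were present.

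Tests used limma 3.58.1 (R 4.3.3) with a mean-variance trend on log2(TPM + 1), for the 10936 rows averaging 1 TPM or more. A log2 difference on this scale understates changes of weak rows. P-values were two-sided, adjusted by Benjamini-Hochberg over all rows tested and called under 0.05. The fit has 2 residual degrees of freedom, to which moderation added 9.53. The fit was tested on simulated data with independent noise set by the mean level alone. That simulation did not cover shifts shared by a whole library, or rows that vary more than others of their level. With 2 libraries against 2, calls rest on few libraries. Summaries used Python 3.11.15.

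Members, lists and naming rules were chosen with earlier results of these data known. Named with values were the 12 highest means, the 5 largest differences each way among rows of at least 5 TPM (4 were positive), every Scarna row above 0 and their hosts; Snora34, Snora15, the list of called rows and Dancr were added after their values were seen. Of the fixed lists, called genes, the 4 core proteins, Coil, Wrap53, Terc and Tert are named with values. Col1a1, Col1a2 and Itgam were added after their values were seen. Hosts, lengths and sequences come from GENCODE M21 and RefSeq, both GRCm38, matched by symbol; since the files' build differs, no coordinates are given. Alternatives were other pseudocounts, filters, scalings and limma options, a replicate block and leaving out each library.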

Additional observations from a re-analysis of the deposited data

How the results depend on the processing

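Counts of called rows depended on the libraries, since only 2 stand in each group; with a library left out, the lone library of its group is assumed to vary like the other group. With no filter on low values, limma called 0 rows in the table (1579 higher and 986 lower at an unadjusted p under 0.05) and so 0 Snora or Scarna rows, 0 hosts, 0 particle genes and 0 Cajal body genes, with 15, 3, 5 and 2 of them at an unadjusted p under 0.05. Leaving out 1 library in turn gave 99 to 2873 rows called higher and 69 to 1271 lower over the table, 0 to 1 higher and 0 to 29 lower for Snora and Scarna rows, 0 to 4 higher and 0 to 5 lower for hosts, 0 to 1 higher and 0 to 6 lower for the 15 particle, assembly and trimming genes, and 0 to 2 higher and 0 to 7 lower for the Cajal body list. Median centring gave 160 rows called higher over the table and 4 Snora rows lower; quantile normalisation gave 217 higher and 146 lower over the table, 4 Snora rows lower and 1 Cajal body gene. Limma without the trend gave 144 rows lower and 1 Cajal body gene. Hosts called higher numbered 1 with a filter of 5 TPM, namely Snhg12. Nhp2 lost its call after median centring (limma adjusted p = 0.0515), and Nolc1 after quantile normalisation (0.0756) and without the trend (0.078). The cause was not tested.

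The median log2 difference over the 45 Snora and Scarna rows was -0.80 and stayed below 0 under every alternative run, from -1.02 (pseudocount 0.1) to -0.55 (without high density replicate 2). Rows lower at high density numbered 32 to 36 of the 39 above 0. The sign changed under at least 1 alternative for 6 of these 39, none of them called: Scarna2, Scarna9, Scarna13, Snora20, Snora34 and Snora43. With the replicate number as a block, 1 Snora or Scarna row and 1 host, Snhg12, were called higher. In that fit 16 Snora or Scarna rows were called lower, the 11 among them. Over the table the block gave 600 rows higher and 337 lower. The difference between replicates 1 and 2 at low density and that at high density had Pearson's r = 0.042 across the tested rows. This value gives little sign of pairing by number, and it cannot settle whether the numbers pair the samples. Each Scarna row rests on 0 to 20 reads per library.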
